A study of Mus musculus with 10 samples.

Results

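Gained gene-end p65 regions are stretches of mouse chromatin at the boundaries of protein-coding genes that entered the p65 peak lists of both stimulated T cell types and neither unstimulated list. Overlapping peaks were merged within each of the 4 lists and then across lists. A region was kept when it held peaks of both stimulated lists and none of the unstimulated lists, with its strongest summit within 1 kb of a gene start or end. The rule found 680 regions, at 676 different nearest genes, among 11923 merged regions. Gained regions of any position made up 27.5% of all merged regions, and the 680 made up 16.0% of the 4250 merged regions with a summit within 1 kb of a gene boundary. The regions were thus selected on presence or absence in the 4 peak lists and on distance to a gene, and these values are given as description, with no test.

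The data are p65 ChIP-seq of T cells from spleens and lymph nodes of C57BL/6 mice, whose age was not given. The cells were Tconv, the conventional T cells, and Treg, the regulatory T cells that restrain immune responses. Each type was taken unstimulated or after 3 h of culture on plate-bound anti-CD3 in the presence of anti-CD28 in solution. The stimulated Tconv culture held 2 ng/ml IL-2 and the stimulated Treg culture 10 ng/ml, so cell type and IL-2 dose cannot be told apart. The culture of the unstimulated cells was not given, so stimulation cannot be told apart from the culture itself. Each of the 4 groups had 2 libraries, and 2 further libraries held input chromatin from a mixture of all 4 cell states. The authors' peak lists hold 1 list per group made from both libraries, so there is no spread between replicates, the depth of the libraries is unknown, and intervals cover counting error over regions alone. In a bulk sample, more cells with bound p65 and more p65 bound per cell cannot be told apart.

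p65 (RelA) is the main activating subunit of NF-kB. In resting cells inhibitors of the IkB family hold it in the cytoplasm. Signals from the T cell receptor and CD28 run through adaptor proteins to a kinase that marks IkB proteins for destruction, and p65 then enters the nucleus and binds promoters and enhancers of activation, survival and cytokine genes. Its binding sites, κB sites, are short sequences that start with a run of G and end with a run of C.

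Promoter sequences are shown first for the gained regions whose window held a match to the κB consensus, because these are the letters the factor is known to read. RefSeq's promoter table (GRCm38.p6, in mm10 coordinates) gives 300 bases per transcription start, from 250 bases before it. A start of this table lay within 1 kb of the summit for 504 gained regions, in 503 different windows. The 6 windows below belong to the most enriched gained regions (by fold enrichment over local background in the stimulated Treg list) with a κB match, which is in capitals. Each is written 5′ to 3′ on the strand of its gene. They are Gch1 (chr14:47189364-47189663, minus strand), which encodes an enzyme of tetrahydrobiopterin synthesis, AI987944 (chr7:41393330-41393629, minus strand), Arhgdib (chr6:136941850-136942149, minus strand), a regulator of small GTPases in blood cells, Smim15 (chr13:108044224-108044523, plus strand), Il2ra (chr2:11642542-11642841, plus strand), the high-affinity IL-2 receptor chain, and Cxcl10 (chr5:92348840-92349139, minus strand), a chemokine.
Gch1: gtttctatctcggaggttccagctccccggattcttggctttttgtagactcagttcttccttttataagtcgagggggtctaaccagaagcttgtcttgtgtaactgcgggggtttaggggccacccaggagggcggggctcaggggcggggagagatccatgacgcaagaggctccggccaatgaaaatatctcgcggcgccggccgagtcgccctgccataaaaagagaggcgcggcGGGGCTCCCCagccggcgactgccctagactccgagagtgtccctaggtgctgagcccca
AI987944: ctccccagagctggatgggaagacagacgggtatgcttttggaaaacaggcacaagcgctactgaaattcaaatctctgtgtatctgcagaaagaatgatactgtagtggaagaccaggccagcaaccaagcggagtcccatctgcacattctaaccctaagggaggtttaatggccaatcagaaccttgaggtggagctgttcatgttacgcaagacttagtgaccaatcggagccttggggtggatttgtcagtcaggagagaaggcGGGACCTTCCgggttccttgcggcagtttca
Arhgdib: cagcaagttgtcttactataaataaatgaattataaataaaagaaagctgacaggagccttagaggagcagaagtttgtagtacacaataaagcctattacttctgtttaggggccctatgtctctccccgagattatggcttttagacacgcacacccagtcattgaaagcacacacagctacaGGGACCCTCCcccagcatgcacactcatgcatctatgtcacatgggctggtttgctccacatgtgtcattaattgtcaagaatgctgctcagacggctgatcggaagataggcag
Smim15: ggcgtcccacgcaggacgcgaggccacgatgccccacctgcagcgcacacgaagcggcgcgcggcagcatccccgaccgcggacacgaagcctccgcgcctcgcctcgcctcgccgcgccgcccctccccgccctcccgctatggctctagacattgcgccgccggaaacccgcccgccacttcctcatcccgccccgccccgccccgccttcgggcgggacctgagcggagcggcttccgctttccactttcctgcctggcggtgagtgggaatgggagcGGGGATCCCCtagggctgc
Il2ra: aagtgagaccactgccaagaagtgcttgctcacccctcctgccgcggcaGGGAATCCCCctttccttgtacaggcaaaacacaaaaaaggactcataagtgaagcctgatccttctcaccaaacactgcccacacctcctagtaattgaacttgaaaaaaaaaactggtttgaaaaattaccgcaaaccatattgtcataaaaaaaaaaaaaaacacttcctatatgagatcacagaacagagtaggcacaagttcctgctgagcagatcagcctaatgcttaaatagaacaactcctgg
Cxcl10: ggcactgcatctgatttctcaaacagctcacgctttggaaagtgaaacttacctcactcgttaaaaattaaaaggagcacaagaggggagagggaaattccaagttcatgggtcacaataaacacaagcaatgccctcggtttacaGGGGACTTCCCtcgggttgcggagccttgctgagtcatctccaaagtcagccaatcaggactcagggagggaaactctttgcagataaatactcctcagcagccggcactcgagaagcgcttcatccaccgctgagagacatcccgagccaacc
The κB match and the p65 summit lay close together at Cxcl10, with 23.5 bp from the centre of the nearest match to the summit. The capitals there hold 2 overlapping matches. At Smim15 the distance was 78.5 bp and at Il2ra 100.5 bp. At Arhgdib (170.5 bp), Gch1 (276.5 bp) and AI987944 (449.5 bp) the summit lay away from the match.

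Among the 10 most enriched gained regions of the stimulated Treg list, Hspb7, Sh2b3, Cfap54 and Nfkbiz had no listed start within 1 kb. The others, Tnf, Cish, Tagap, Prrg4, Btla and Erbin, had no κB consensus match in the window of their nearest start. The 2 most enriched of these with the summit inside the window were at Tnf (chr17:35201958-35202257, minus strand), the inflammatory cytokine gene, and Tagap (chr17:7925750-7926049, plus strand), a GTPase-activating protein gene induced in activated T cells.
Tnf: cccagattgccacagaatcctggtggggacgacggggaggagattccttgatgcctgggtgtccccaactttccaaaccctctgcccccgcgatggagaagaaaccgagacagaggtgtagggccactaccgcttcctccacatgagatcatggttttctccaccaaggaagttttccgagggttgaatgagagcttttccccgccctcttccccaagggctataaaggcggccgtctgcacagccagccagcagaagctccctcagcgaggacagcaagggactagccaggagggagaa
Tagap: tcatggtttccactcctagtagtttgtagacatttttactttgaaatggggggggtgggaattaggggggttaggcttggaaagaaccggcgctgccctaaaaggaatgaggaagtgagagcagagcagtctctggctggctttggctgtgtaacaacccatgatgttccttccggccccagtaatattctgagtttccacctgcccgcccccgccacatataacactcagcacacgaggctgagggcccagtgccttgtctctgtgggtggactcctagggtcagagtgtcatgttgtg
The summits lay 137 bp before the start of Tnf and 170 bp before the start of Tagap. The absence of a match says only that these letters are not in these 300 bases.

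The most enriched gained regions lay at genes of varied function, among them Tnf and also Hspb7 and Cfap54, genes best known from muscle and from cilia. Fold enrichment is the authors' value for each summit against its local background. At Hspb7 (chr4:141424706-141426531, summit 583 bp beyond the end of the gene), a small heat shock protein gene, it was 97.45 in the stimulated Treg list and 66.3 in the stimulated Tconv list, the highest value among gained regions in both. At Tnf (chr17:35197991-35202816) it was 81.2 and 50.9. Cish, a feedback inhibitor of cytokine signalling (chr9:107294176-107297765, summit 862 bp before its start), had 65.7 in the Treg list, rank 3 of the 680, and 26.6 in the Tconv list, where it ranked 21. Sh2b3, which encodes the adaptor LNK, had 63.4 and 52.7.

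Further regions followed at Tagap (52.85 in the Treg list and 34.0 in the Tconv list), Prrg4 (51.5 and 29.95), Cfap54 (51.4 and 31.0), and Btla, an inhibitory receptor of lymphocytes (49.65 and 30.5). Nfkbiz, which encodes the nuclear IkB protein IκBζ, had 47.6 and 34.9, and the scaffold gene Erbin 47.1 and 38.7. The 10 most enriched regions of the Tconv list added Itgam, the CD11b gene (38.65 in the Tconv list and 27.8 in the Treg list), Pou2af1, a coactivator of Oct factors (32.0 and 25.4), and Gch1 (31.6 and 39.8). The Itgam summit lay 680 bp beyond the end of the gene, so the nearest boundary was not its promoter.

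**Figure D1:**
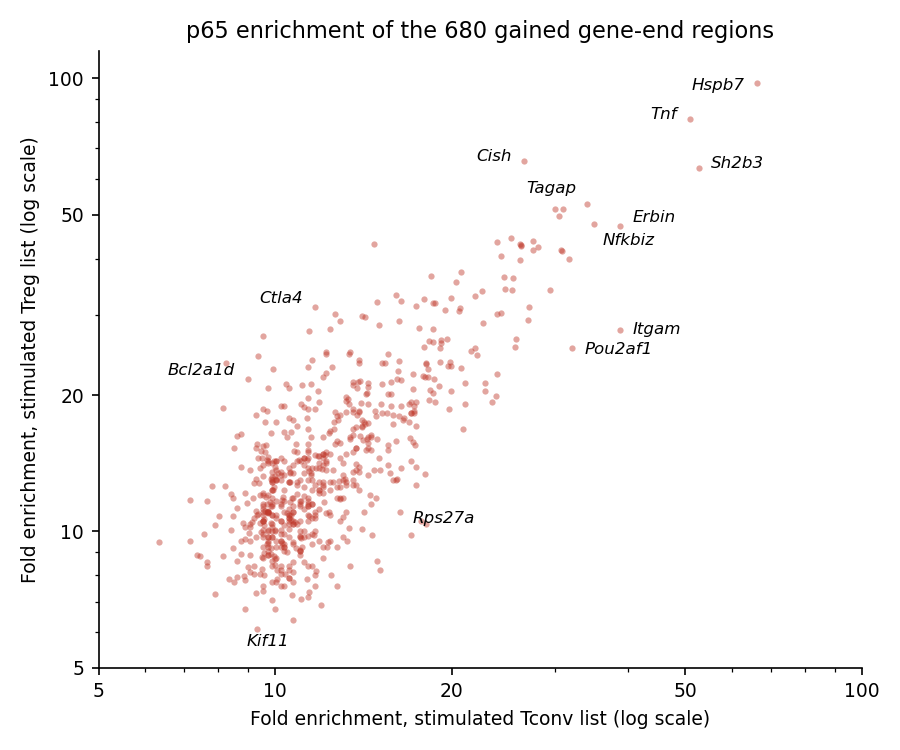
Fold enrichment of each of the 680 gained gene-end regions in the stimulated Tconv list (x axis, log scale) and the stimulated Treg list (y axis, log scale), with 13 regions named. Of the 680 points 493 lie between 8 and 20 on both axes, with Hspb7, Tnf and Sh2b3 at the upper right, Ctla4 and Cish above the cloud and Itgam and Pou2af1 below it.

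Most gained gene-end regions were of moderate strength. The median fold enrichment was 13.3 in the stimulated Treg list (95% order-statistic interval 12.8 to 13.8, range 6.09 to 97.45) and 11.4 in the stimulated Tconv list (11.2 to 11.7, range 6.33 to 66.3). In the Tconv list the gained regions were weaker than the 1197 gene-end regions present in all 4 lists, whose median was 13.9 (13.5 to 14.1), while in the Treg list the medians were 13.3 and 13.35 (13.0 to 13.7). The 2594 gained regions away from gene boundaries had a higher Treg median, 18.25 (17.7 to 18.8), and 12.8 in Tconv (12.55 to 13.0). Folds from different lists rest on libraries of unknown depth and were not compared across lists.

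The weakest members by the Treg list were at Kif11, a mitotic motor gene (6.09-fold), Bcl9l (6.36-fold), and Selenow and Rmnd5b (6.74-fold each). The lowest −log10 p among the 680 was 27.2 in stimulated Treg and 38.4 in stimulated Tconv. The 4 lists end at different values, with a lowest −log10 p of 26.6 in stimulated Treg, 38.1 in stimulated Tconv, 15.1 in unstimulated Treg and 13.3 in unstimulated Tconv, so peaks of lower −log10 p were kept in the unstimulated lists. The unstimulated lists were still shorter, with 3442 entries in Treg and 3132 in Tconv, against 13078 and 6480 in the stimulated lists. With library depth unknown, absence from the unstimulated lists is not shown to be absence of binding. Between the stimulated lists, peaks of lower −log10 p were kept in Treg. The gene-end regions in stimulated Treg alone had a median −log10 p of 36.5, below the end of the Tconv list. Their absence from the Tconv list is thus not shown to be absence of binding. At the 1 kb limit, the regions just inside were at Ap1g2 (996 bp, 13.0-fold in Treg and 9.87-fold in Tconv) and Cabcoco1 (994 bp, 27.6-fold and 11.4-fold). Just outside lay regions at Camkk2 (1006 bp, 10.5-fold and 12.2-fold) and Orai2, a calcium channel subunit gene (1007 bp, 16.1-fold and 15.2-fold).

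The stimulated Treg and Tconv lists placed p65 at nearly the same base in most gained regions. The distance between the strongest summits of the lists had a median of 17 bp (15 to 18 bp) and was at most 50 bp in 595 of 680 regions (87.5%, 95% Wilson interval 84.8 to 89.8%). It was over 500 bp in 25 regions (3.68%), among them Cd69, an early activation receptor gene, where the strongest summits lay 1668 bp apart, and the early growth response gene Egr1, where they lay 713 bp apart. Regions with strong enrichment in one list tended to be strong in the other: across the 680 regions, which share the libraries of each list and possibly the mixed input, Pearson's r of log2 fold was 0.772 and Spearman's rank correlation 0.658. Of the 68 most enriched regions of each list, 45 were common to both lists.

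Single regions stood at different ranks in the lists. Ctla4, an inhibitory receptor central to Treg function, had 31.3-fold in the Treg list, rank 43 of the gained regions, and 11.7-fold in the Tconv list, rank 312. Bcl2a1d, a survival gene of the BCL2 family, had 21.7-fold (rank 110) and 8.97-fold (rank 639), although reads of the near-identical Bcl2a1 copies may have been shared among them. In the other direction, Irf8 had 12.7-fold in Treg (rank 376) and 17.4-fold in Tconv (rank 92), and Rps27a, a ribosomal protein gene, 11.0-fold (rank 470) and 16.3-fold (rank 118). Without replicates, none of these differences could be tested.

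Gained gene-end regions were mostly promoter regions. The strand of the nearest gene was known for 554 of the 680 regions, and the nearest boundary was a start in 514 of them (92.8%, 90.3 to 94.65%) and an end in 40. The regions at gene ends included the most enriched of all, at Hspb7, and those of Otulin, which encodes a deubiquitinase of linear ubiquitin chains (66 bp beyond the end, 43.7-fold in Treg and 27.6-fold in Tconv), Tnfsf14, the ligand LIGHT (442 bp, 31.9-fold and 18.6-fold), and Socs3, a feedback inhibitor of cytokine signalling (339 bp, 21.9-fold and 12.05-fold). Of the gene-end regions in all 4 lists, 98.0% lay at a start (969 of 989), and the gained share was lower by 5.20 percentage points (95% Newcombe interval of the difference, gained minus all-list, -7.76 to -3.04). The gene-end regions in stimulated Treg alone had a start share of 93.3%, from which the gained share differed by -0.538 points (-3.42 to 2.11), so the lower share was not particular to gained regions. A second protein-coding gene had a boundary within 1 kb of the summit in 97 gained regions (14.3%).

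Gained summits also lay farther from the boundary. The median distance was 122 bp for gained regions and 72 bp for regions in all 4 lists, and 308 of 680 (45.3%) against 722 of 1197 (60.3%) lay within 100 bp, a difference of -15.02 points (-19.6 to -10.3). Of the regions in stimulated Treg alone 53.9% lay within 100 bp, and the gained share differed from it by -8.62 points (-13.4 to -3.82). Among regions with a listed transcription start, the gained summits had a median position of -62 bp (quartiles -168 and 4 bp, negative values being before the start), and 73.8% (69.8 to 77.5%) lay before it. For the regions in all 4 lists the median was -53 bp (quartiles -120 and -7 bp). Both sets peaked just before the start, and the gained set had more summits far from it.

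**Figure D2:**
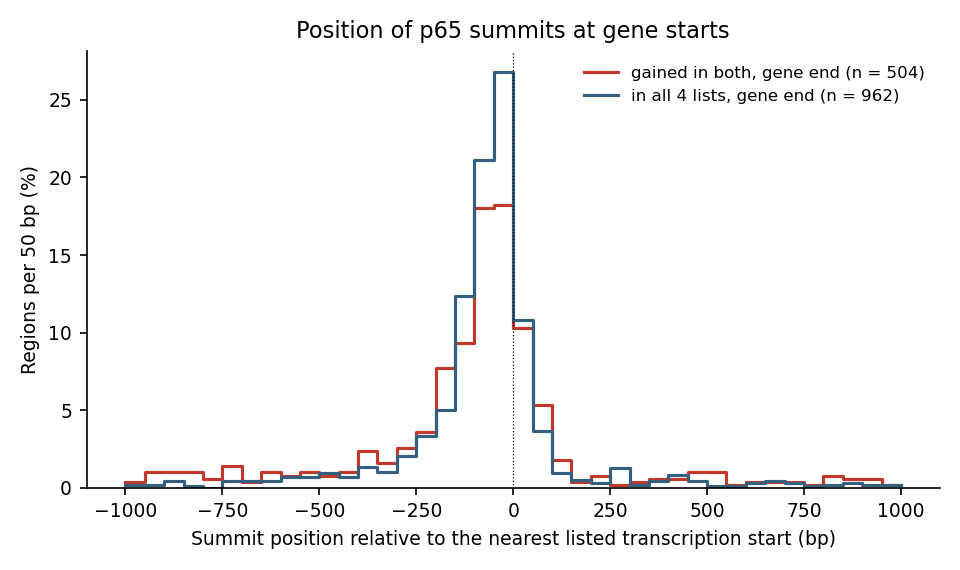
Share of regions (y axis, percent per 50 bp) by position of the p65 summit relative to the nearest listed transcription start (x axis, bp, negative values before the start), for 504 gained gene-end regions and 962 gene-end regions in all 4 lists. Both lines peak in the 50 bp before the start, with 18.25% of gained regions there, and the line of regions in all 4 lists is the higher and narrower one.

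The promoters of gained regions differed from those of regions in all 4 lists most in 1 motif, the site of NRF1, a factor that binds CpG-rich promoters of housekeeping and mitochondrial genes. Its palindromic consensus, which reads the same on both strands and is spelled in capitals in the sequences that follow, matched 2 of 503 gained windows (0.398%, 0.109 to 1.44%) and 96 of 962 windows of regions in all 4 lists (9.98%, 8.24 to 12.0%), a difference of -9.58 points (-11.7 to -7.56). Over all 21263 promoter windows of protein-coding genes the share was 1.33%, and in windows of gene-end regions found in stimulated Treg alone 0.902% (7 of 776). The low share of the gained windows was near that of the stimulated Treg regions and of all promoters, without matching for base composition. The high share was that of the regions present before stimulation. The gained windows held less G and C than the all-list windows (median 60.7% against 65.7%) and fewer CpG pairs (21 against 28). All promoters held less still (56.3% and 13). The shorter core CGCATGCG, which contains fewer bases of the same site, matched 1.39% of gained and 17.98% of all-list windows (all promoters 2.52%). Within windows under 60% G and C the NRF1 shares were 0.444% (gained) and 11.1% (all-list), and between 60 and 70% they were 0.508% and 11.5%. Over all promoters they were 0.804% and 2.20%, within the gained intervals (0.0785 to 2.47% and 0.0897 to 2.82%). At 70% or more, 0% of gained (0 to 4.53%), 6.67% of all-list and 2.05% of all promoter windows matched.

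The NRF1 matches are shown in capitals in 60 bases around the match nearest to the summit, for both gained windows that held one and for the 3 most enriched of the regions in all 4 lists (by the unstimulated Treg list). The gained windows are Pip5k1a (chr3:95106881-95106940, minus strand), a phosphoinositide kinase gene, and Esf1 (chr2:140170637-140170696, minus strand), a nucleolar protein gene. The others are Zbtb41 (chr1:139422161-139422220, plus strand), Polh (chr17:46202701-46202760, minus strand), which encodes a DNA polymerase for damaged templates, and Upf1 (chr8:70353470-70353529, minus strand), a helicase gene of nonsense-mediated decay.
Pip5k1a: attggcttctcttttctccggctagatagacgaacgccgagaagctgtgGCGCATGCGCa
Esf1: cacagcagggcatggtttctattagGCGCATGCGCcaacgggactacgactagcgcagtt
Zbtb41: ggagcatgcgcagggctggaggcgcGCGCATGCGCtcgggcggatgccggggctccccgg
Polh: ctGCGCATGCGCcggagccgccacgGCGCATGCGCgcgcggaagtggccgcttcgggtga
Upf1: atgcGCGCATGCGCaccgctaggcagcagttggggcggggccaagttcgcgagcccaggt
At Pip5k1a the match lay 79.5 bp and at Esf1 92.5 bp from the p65 summit, and these regions were weak (11.2-fold and 8.82-fold in stimulated Treg). At Zbtb41 the distance was 1.5 bp, at Polh 8.5 bp and at Upf1 165.5 bp. Over the 94 all-list regions whose summit lay in a window with a match, the median distance was 14.5 bp, and 81 (86.2%, 77.8 to 91.7%) had the match within 50 bp. All-list regions with a match had an unstimulated Treg median of 19.7-fold (16.9 to 23.8) against 12.6-fold (12.1 to 13.6) for those without, and in the unstimulated Tconv list the medians were 19.9-fold (16.8 to 24.0) and 12.6-fold (11.8 to 13.3). In the stimulated lists they were 12.4-fold (11.5 to 14.1) with a match and 13.2-fold (12.8 to 13.6) without in Treg, and 14.5-fold (13.7 to 15.7) and 13.5-fold (13.2 to 13.96) in Tconv. Binding of NRF1 itself was not measured, and a match is a description of sequence alone.

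The κB consensus was found in 39 of 503 gained windows (7.75%, 5.72 to 10.4%), against 6.27% of all promoters. The gained share differed by -1.71 points (-4.57 to 1.46) from the 9.46% of regions in all 4 lists and by 1.57 points (-1.23 to 4.63) from the 6.19% of regions in stimulated Treg alone, so that no difference in this form was detectable with these numbers. A stricter κB form matched 2 gained windows (0.398%, all promoters 0.423%), and a form with free inner bases matched 69.98% (all promoters 57.0%), so the share rests on the form searched. In the form with free inner bases the gained share differed by -5.59 points (-10.5 to -0.83) from the 75.6% of regions in all 4 lists and by 2.45 points (-2.78 to 7.57) from regions in stimulated Treg alone. With the summit inside the window the first of these differences was -3.29 points (-9.09 to 2.24). Where the summit lay in a window with a match, 15 of 30 gained regions had the match within 50 bp (50%, 33.2 to 66.9%). The shares were alike in regions in all 4 lists (33 of 79, 41.8%) and in stimulated Treg alone (16 of 34, 47.1%). Gained regions with a κB match had a median of 14.3-fold in stimulated Treg (11.5 to 17.4, n = 39) and those without 12.8-fold (12.2 to 13.2, n = 465), with overlapping intervals. In stimulated Tconv the medians were 11.4-fold (10.2 to 14.4) and 11.4-fold (11.0 to 11.55). Most gained promoter windows thus held no consensus match, while bases outside the 300 bp were not read.

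Other motifs differed less. CCAATCA, a common form of the CCAAT box, matched 13.3% of gained windows, 6.86% of windows of regions in all 4 lists and 9.11% of all promoters, with a gained minus all-list difference of 6.46 points (3.23 to 10.0). The share in regions of stimulated Treg alone was 12.5%. GGAAAAT, a form of the NFAT site, matched 5.96% of gained windows against 3.02% (difference 2.95 points, 0.777 to 5.54), 2.84% in regions of stimulated Treg alone (difference 3.13 points, 0.872 to 5.73) and 4.28% of all promoters. The AP-1 site TGANTCA was found in 4.17% of gained windows and 3.85% of the all-list windows, both below the 6.99% of all promoters. The ETS form CCGGAAGT (11.3%, all promoters 5.15%) and the cAMP response element TGACGTCA (4.97%, all promoters 2.23%) were more frequent in gained windows than in all promoters, but regions in all 4 lists (8.11% and 3.85%) and in stimulated Treg alone (12.8% and 5.03%) were high as well. The SP and KLF form GGGCGGGG was found in 37.2% of gained windows, 42.8% of all-list windows and 23.6% of all promoters. The YY1 form AAGATGGC was found in 3.38%, 5.82% and 3.05%, and the EGR form GCGTGGGCG in 1.79%, 1.56% and 0.828%. These intervals were not adjusted for the 12 motifs searched, nor for the shorter NRF1 core searched beside them. The shares of all promoters given here and for the κB forms were not matched for G and C content.

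**Figure D3:**
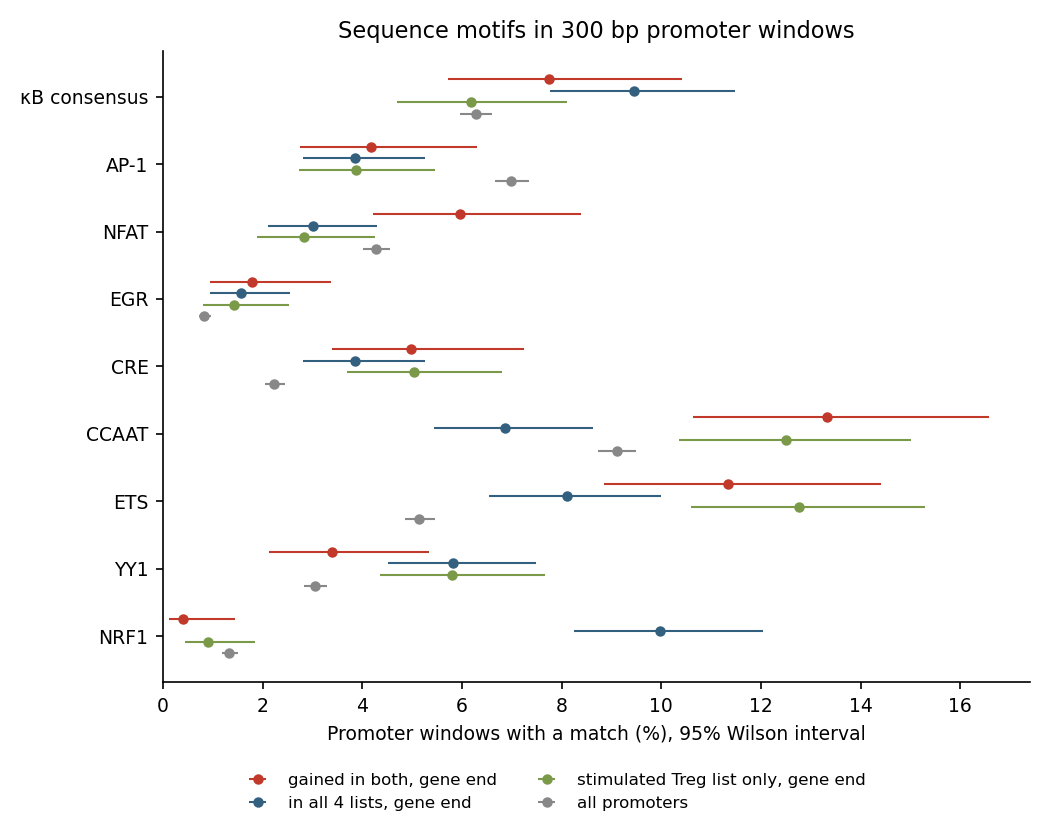
Share of 300 bp promoter windows with a match to each of 9 motifs (x axis, percent; bars are 95% Wilson intervals) for gained gene-end regions, gene-end regions in all 4 lists, gene-end regions in the stimulated Treg list alone, and all promoters. The NRF1 share of the regions in all 4 lists (9.98%) stands apart from the other 3 sets (0.398 to 1.33%), while the κB shares overlap.

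By function, the lists with the highest shares of genes with a gained gene-end region were T cell receptor signalling (7 of 24) and immediate-early genes (9 of 34), an order that depended on where the peak lists were ended. With a common −log10 p cut-off in all 4 lists, the immediate-early list had 17 of 34, the naive and conventional T cell list 8 of 16 (4 without the cut-off), the upstream NF-kB kinases and adaptors 7 of 20 (4), the NF-kB feedback and ubiquitin-editing genes 5 of 18 (2), cytokine receptor genes 9 of 28 (6), and T cell receptor signalling still 7 of 24. With equal list lengths T cell receptor signalling had 3, immediate-early genes 6 and TNF superfamily genes 5. A gained region lay at 51 of the 340 genes of 17 gene lists, against 3.09% of all protein-coding genes. Among genes with any gene-end region the share was 16.2%. That base leaves out genes without such a region, which the 340 include, so it is not a like comparison. Among listed genes with any gene-end region, 7 of 13 T cell receptor signalling and 9 of 25 immediate-early genes had a gained one. The counts were 2 of 17 for ribosomal protein genes and 1 of 10 for NF-kB subunits and IkB proteins. The shares of all genes with a gene-end region in all 4 lists or in stimulated Treg alone were 5.46% and 4.83%. Most lists were chosen for T cells, so the share over all genes, expressed or not, is not a matched background. Genes of T cell receptor proximal signalling had one at 7 of 24 genes (29.2%), where 2 had a gene-end region in all 4 lists and 3 in stimulated Treg alone. They included the adaptor gene Lcp2, encoding SLP-76 (37.4-fold in Treg and 20.8-fold in Tconv), the kinase genes Fyn (28.6 and 15.01) and Zap70 (23.8 and 16.3), the co-receptor gene Cd28 (13.2 and 10.0), and Lat and Rasgrp1. The Zap70 summit lay 45 bp before its start.

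Immediate-early and activation regulators had a gained gene-end region at 9 of 34 genes (26.5%). Among them were the transcription factor genes Egr3 (41.5-fold in Treg and 30.8-fold in Tconv), Nr4a2 (21.7 and 16.1), Fos (19.3 and 17.4) and Egr1 (18.6 and 13.55), and Cd69 (23.6 and 19.8). The other 4 were Batf, Maff, Dusp4 and Myc. The Fos window held a κB consensus match, and its summit lay 180 bp before the start. In this list 4 genes had a gene-end region in all 4 lists and 7 in stimulated Treg alone.

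The NF-kB system itself was split. Of the 11 genes of NF-kB subunits and IkB proteins 1, Nfkbiz, had a gained gene-end region, and 7 had one in all 4 lists (63.6%, against 5.46% of all genes). Of the 18 feedback and ubiquitin-editing genes 2 had a gained region, Otulin and Otud7b (19.1-fold in Treg and 14.4-fold in Tconv), and 7 had one in all 4 lists. Among 20 upstream kinases and adaptors the numbers were 4 gained and 2 in all 4 lists. The gained ones included Traf6, a ubiquitin ligase gene (19.6-fold and 13.3-fold), Malt1, the paracaspase gene (17.4 and 14.15), and Ripk2 (15.9 and 14.1). At Traf6 the summit lay inside the gene, 902 bp from its start.

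TNF superfamily genes had a gained gene-end region at 5 of the 24 genes listed, and 4 of the 5 encode ligands. Beside Tnf and Tnfsf14 these were Fasl, the ligand of the death receptor Fas (26.6-fold in Treg and 19.6-fold in Tconv), and Cd40lg, the helper ligand (25.35 and 19.1). The receptor gene among the 5 was Fas itself (34.2 and 25.3). The receptor gene Tnfrsf19, outside this list, also had gained regions, the stronger with 42.8 and 26.2. A gained region nearest to Espn (34.0 and 29.45) also had a boundary of the receptor gene Tnfrsf25 within 1 kb. With every gene within 1 kb counted, 6 listed genes had a gained region. The share of ligands thus rests on the genes listed and on assignment to the nearest gene. The median of the 5 listed genes was 31.9-fold in the Treg list, against 13.3-fold over all gained gene-end regions. Of the 23 cytokine and chemokine genes 1, Cxcl10, had one (21.4-fold and 14.0-fold), a share of 4.35% against 3.09% of all protein-coding genes. No gene of that list had a gene-end region of the other 2 patterns (5.46% and 4.83% of all genes).

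Cytokine receptor, JAK, STAT and SOCS genes had a gained gene-end region at 6 of 28 genes: Cish, Socs3, Il2ra (21.7-fold in Treg and 18.7-fold in Tconv), Stat3 (11.7 and 7.16), Il7r (11.55 and 8.95) and Ifngr1. Of the 22 Treg identity genes 3 had one, namely Ctla4, Il2ra and the inhibitory receptor gene Tigit (13.9 in both lists), while 0 had a gene-end region in all 4 lists and 4 had one in stimulated Treg alone. The naive and conventional T cell list had 4 of 16, with Cd40lg, Il7r, the homing receptor gene Ccr7 (15.6 and 12.65) and the egress receptor gene S1pr1 (11.4 and 11.4), and another 4 in all 4 lists. Survival genes had 3 of 17, with Bcl2a1b (36.5 and 24.55), Bcl2a1d and Bcl2l11, which encodes the death-promoting BIM (13.0 and 11.4). Interferon regulatory and interferon-induced genes had 3 of 19, with the GTPase gene Gbp3 (42.6 and 26.2), the RNA sensor gene Ddx58 (15.1 and 15.6) and Irf8.

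The housekeeping and antigen processing lists had a gained gene-end region at 1 or 2 genes each. Of the 37 ribosomal protein genes listed 2 had one (5.41%), Rps27a and Rps16 (12.7-fold in Treg and 10.9-fold in Tconv), against 4 with a region in all 4 lists. Rpl21, outside that list, also had a gained region (19.3-fold in Treg and 17.1-fold in Tconv). RNA polymerase II and splicing genes had 2 of 25, Sf3b2 (17.8 and 11.35) and Prpf19 (10.9 and 9.87), against 7 in all 4 lists. Antigen processing, proteasome and MHC class I genes had 1 of 17, Psme1, a proteasome activator gene (11.2 in both lists), against 4. The proteasome subunit gene Psmd12, outside that list, had one as well (16.8 and 12.6). These lists thus hold only a part of such genes. No gene-end region of any pattern lay at the 7 B cell markers, and of the 7 myeloid markers Itgam alone had one. Of the Treg markers Foxp3, Ikzf2, Il2ra and Ctla4 had a gene-end region in some list and Tnfrsf18 did not; expression was not measured, so the cell types could not be checked by their transcripts.

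**Figure D4:**
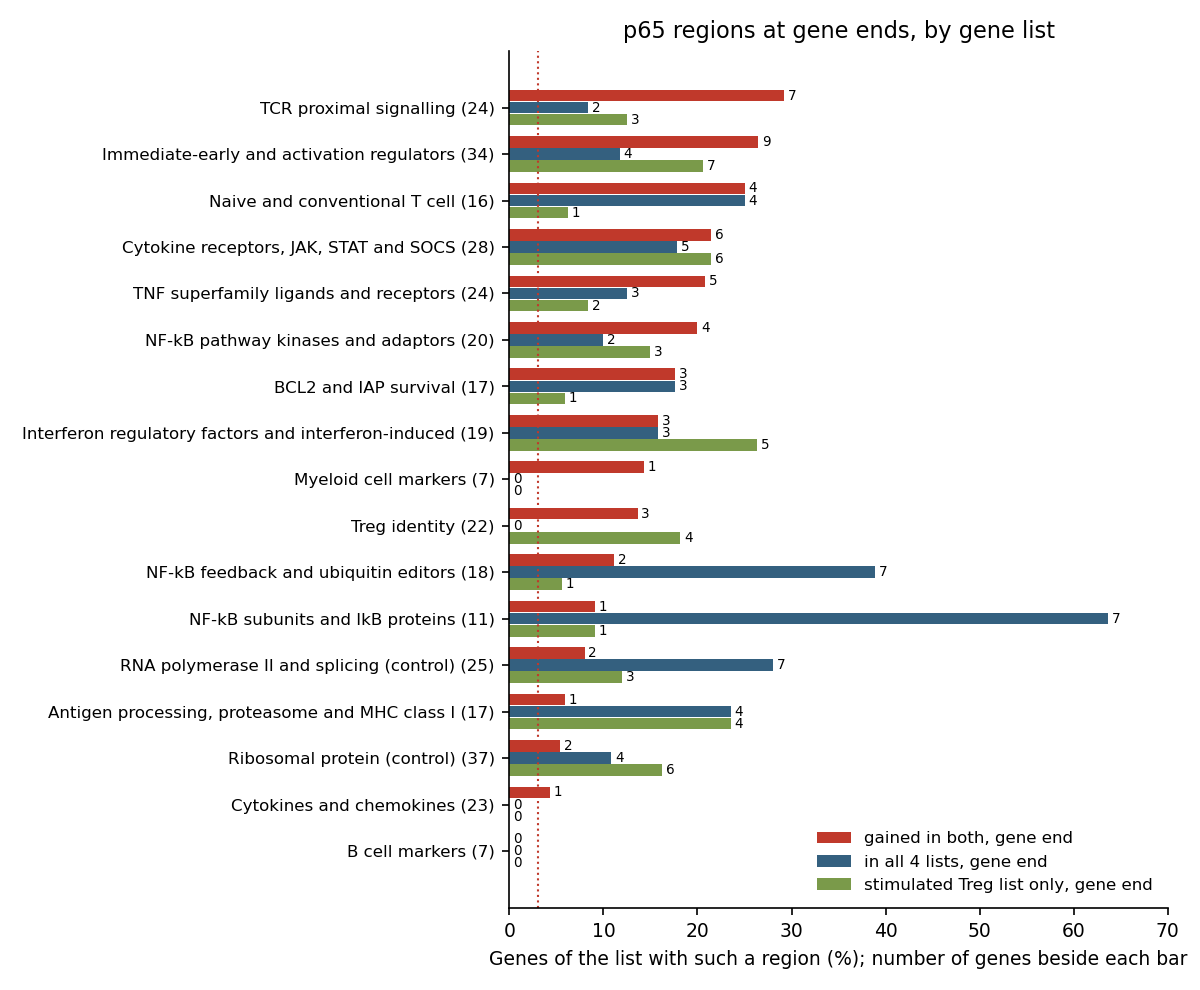
Share of the genes of each list (x axis, percent; the number of genes stands beside each bar and the list size in brackets) with a gained gene-end region, a gene-end region in all 4 lists, or one in the stimulated Treg list alone. The dotted line marks the 3.09% of all protein-coding genes with a gained gene-end region; with the lists as deposited, T cell receptor signalling (7 of 24) leads the gained bars, which it does not with a common −log10 p cut-off, and NF-kB subunits and IkB proteins (7 of 11) the bars of all 4 lists.

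With the lists as deposited, gained gene-end regions had other p65 regions nearby less often than gained regions away from gene boundaries, and more often than gene-end regions in all 4 lists. Another p65 region of any pattern had its summit within 50 kb of 467 of the 680 (68.7%, 65.1 to 72.05%), and 213 had none. The share was 61.1% for gene-end regions in all 4 lists (difference 7.61 points, 3.11 to 12.0). For gene-end regions in stimulated Treg alone it was 64.0% (difference 4.68 points, 0.125 to 9.14). For gained regions away from gene boundaries it was 88.8% (difference -20.1 points, -23.9 to -16.5). With a common −log10 p cut-off the gained share was 59.9%, and the shares of the other sets were not recomputed. Another region gained in both cell types lay within 50 kb of 35.15% of gained gene-end regions, 24.3% of those in all 4 lists (difference 10.8 points, 6.53 to 15.2) and 66.1% of gained regions away from gene boundaries. A region in all 4 lists lay near 16.9%, 18.6% and 23.7%. Neighbours share their stretch of genome, so these regions are not independent of each other.

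The surroundings varied between genes. Around Il2ra 13 other p65 regions lay within 50 kb, of which 1 was in all 4 lists, 4 were gained in both cell types and 7 were in stimulated Treg alone. Around Tnf there were 11, with 4 in all 4 lists, 4 gained and 3 in stimulated Treg alone. Around Ctla4 there were 9, all of them in stimulated Treg alone, and around Tigit 5, likewise. The stimulated Tconv list ended at a higher −log10 p than the stimulated Treg list (38.1 against 26.6). Regions in stimulated Treg alone are therefore not shown to be unbound in Tconv. Sh2b3, Erbin, Gch1 and Itgam had none.

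**Figure D5:**
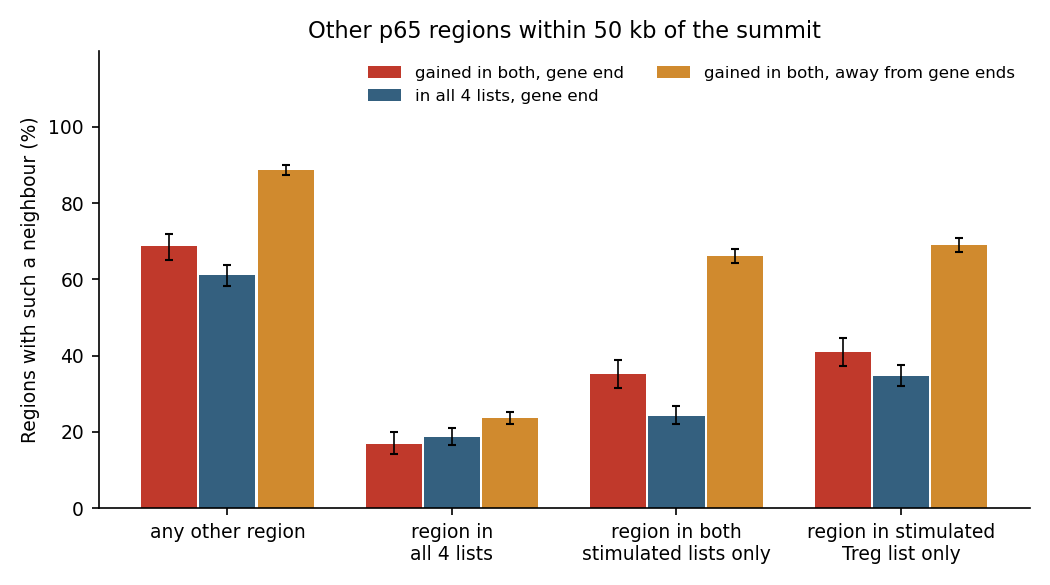
Share of regions (y axis, percent; bars start at 0 and error bars are 95% Wilson intervals) with another p65 region within 50 kb of the summit, by the pattern of that neighbour, for gained gene-end regions, gene-end regions in all 4 lists and gained regions away from gene boundaries. Gained gene-end regions stand at 35.15% for a neighbour gained in both cell types, between 24.3% and 66.1% for the other 2 sets.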

How the data were processed

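Per the submitters' processing notes, the build was mm10 and the tools were MACS2 2.1.1.20160309, BWA 0.7.15-r1140 and Trim Galore 0.4.1. The use of the inputs in calling was not stated. The deposited lists hold peaks of pooled replicates, without blacklisted regions and kept by a conservative reproducibility test, per the file names. The fold enrichment (a ratio over local background), the −log10 p and the score (10 times the −log10 p) are the authors' deposited values, without read counts.

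Peaks were merged with Python 3.11.15 and pandas 2.3.3 (1 bp overlap). RefSeq's GRCm38.p6 tables gave 21887 protein-coding genes, of which 17492 had promoter windows, and strand came from these; 340 of 341 list genes matched. Code was tested on simulated lists and sequences. Intervals (statsmodels 0.14.6) are Wilson, Newcombe or order-statistic at 95%. No test of chance was made. The members and lists were chosen with earlier results of these data known. Named genes are the 10 most enriched per stimulated list, up to 5 per gene list, genes with several gained regions, the 4 weakest and those nearest the limit. The members of a list beyond these, the NRF1 windows and the rank contrasts were chosen after their values were seen. Some genes this rule names are not reported here.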

Additional observations from a re-analysis of the deposited data

How the results depend on the processing

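Leaving out a replicate needs values per library, which the pooled lists do not hold. No paired analysis was possible because each list pools the replicates of its group. Shares with several summits count peaks of the stimulated Treg list alone. In the stimulated Tconv list the share over the 680 gained regions was 7.65% (52 regions). The number of gained gene-end regions depended on where the lists were ended. With a common −log10 p cut-off of 38.1 in all 4 lists, which drops weak unstimulated peaks, there were 1118 (36.1% of gene-end regions), 94.8% at a start, 17.8% with several summits, 59.9% with a neighbour within 50 kb, 80 list genes, medians of 14.2-fold in Treg and 12.05-fold in Tconv, and an NRF1 difference from regions in all 4 lists of -13.0 points. With the cut-off on the stimulated lists alone, the Treg median was 13.9-fold, 15.8% had several summits and 64.8% a neighbour. With equal list lengths, fewer regions remained by construction: 156 (5.77%), 83.5% at a start, 36.5% with several summits (main value 23.2%), 59.6% with a neighbour, 25 list genes (the counts of several lists moved by over 1.5 times, and 0 ribosomal protein, splicing or antigen processing genes were left), medians of 23.6-fold and 18.3-fold, summits 13 bp apart and 11.9% of windows with a κB match. Within 500 bp of a gene the share of gene-end regions was 14.8% and several summits 19.45%; within 2 kb the share was 17.7% and 89.3% lay at a start. With all gene types, the share was 17.6%, 87.1% lay at a start, the Treg median was 13.8-fold and 72.5% had a neighbour. The strict κB form matched 0.398% and the broad form 69.98% of gained windows. These alternatives and the remaining ones kept the NRF1 difference negative: -11.7 points with the summit in the window, -16.6 with the shorter core CGCATGCG, and -6.67 in windows of 70% G and C or more, all 3 chosen after seeing the data. The remaining 62 of 97 values moved by less than their interval or by less than 1.5 times.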

Other observations

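Most gained gene-end regions stood alone among their kind: 602 had no other gained gene-end region within 50 kb, 62 formed 31 pairs, and 4 longer runs were found. The longest run held 5 regions over 88.4 kb of chromosome 19, at Tmem134, Cabp4, Ptprcap, Rad9a and Clcf1, with 7.57-fold to 23.5-fold in stimulated Treg and 10.4-fold to 15.4-fold in stimulated Tconv. Ptprcap encodes a partner of the phosphatase CD45, and Clcf1 a cytokine. The run of 4 around Tnf, over 70.9 kb of chromosome 17, held Prrc2a, Tnf and 2 regions of Nfkbil1, from 10.7-fold to 81.2-fold in Treg. A second run of 4 on that chromosome held Mdc1, Nrm, Ppp1r18 and Dhx16 over 38.5 kb. A run of 3 on chromosome 6 held Gimap6, Gimap1 and Gimap5, GTPase genes of lymphocyte survival, over 37.85 kb, with 9.63-fold to 35.55-fold in Treg and 8.87-fold to 20.3-fold in Tconv.

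A pair of gained gene-end regions at a single gene was found at Btla, Tnfrsf19, Nfkbil1 and Agfg1. At Btla the region at the start had 49.65-fold in Treg and 30.5-fold in Tconv, and the region near the end 23.0-fold and 12.5-fold. At Tnfrsf19 both lay at the start, with 42.8-fold and 26.2-fold before it and 14.8-fold and 12.05-fold inside the gene. At Agfg1 the region near the end (22.0-fold and 17.8-fold) was stronger than the one near the start (11.5-fold and 11.55-fold). At Nfkbil1, which neighbours Tnf, the region beyond the end had 21.9-fold and 18.2-fold and the one near the start 16.6-fold and 10.6-fold. Without replicates these differences were not tested.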
